A study of Mus musculus with 6 samples.

Results

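The transcripts of 10 nuclear receptors were measured in J774 cells, a mouse macrophage cell line, after NCOA4 was silenced. The receptors were chosen by name, as receptors of macrophages, with earlier results of these data known. Each was found in the files through its Ensembl identifier and its GENCODE M21 symbol. They are 10 of the 49 genes of the mouse nuclear receptor superfamily and of the 55487 genes listed in each library. Cells of 1 line were transfected with a control siRNA (siControl) or an siRNA against NCOA4 (siNCOA4), both carried by a liposome reagent, and 3 libraries of each, which the labels call biological replicates, were sequenced. Nothing says whether they came from separate transfections, so p-values measure the spread between these libraries only. Small interfering RNAs of this kind guide the cell's own silencing complex to the matching mRNA, which is then cut. No iron, chelator or receptor ligand is named in the labels of these libraries, and the time from transfection to RNA isolation is not given in the sources used here.

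Nuclear receptors are transcription factors that bind DNA through zinc fingers and small lipophilic ligands, such as steroids, retinoids, vitamin D and fatty acids, through a separate domain. Many of them, the vitamin D, retinoic acid and peroxisome proliferator-activated receptors among them, bind DNA as pairs with a retinoid X receptor, exchange corepressors for coactivators when ligand arrives, and set lipid handling and inflammatory tone in macrophages. NCOA4, the silenced protein, is best known as the cargo receptor that takes ferritin to the lysosome, and it carries its name because it was also described as a coactivator of nuclear receptors.

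Values are TPM, in which reads are scaled for gene length and for the library total, so that levels of different genes can be set side by side. Depth, as whole reads rebuilt from TPM and gene length, was between 15740333 and 18565408 reads per library, and 3 reads on a gene of 2 kb stood for between 0.247 and 0.288 TPM. Ncoa4 read 19.7, 22.5 and 22.4 TPM in siControl replicates 1, 2 and 3 and 9.63, 8.60 and 8.88 TPM in siNCOA4 replicates 1, 2 and 3. Its mean TPM with siNCOA4 was 41.9% of that with siControl, and its log2 fold change was -1.21 (adjusted p = 0.00127, limma). Its processed pseudogene Gm6768, which can share its reads, read 27.6 to 29.5 TPM with siControl and 9.48 to 13.1 TPM with siNCOA4. All 10 macrophage markers had a mean of at least 5 TPM, and of 15 markers of other cells 14 were under 0.5 TPM and 10 were at 0 in every library. S100a8, a granulocyte gene picked for its level, was the exception at 22.6 ± 3.38 and 18.1 ± 2.38 TPM (SD, n = 3 each). Among the macrophage markers, 4 picked for their adjusted p under 0.05, Adgre1, Csf1r, Fcgr1 and Mrc1, rose and Cd14 fell, with a list median of 0.20 on the log2 scale. The summed level of the macrophage markers ran from 8710 to 8910 TPM with siControl and from 9110 to 9210 TPM with siNCOA4, that of the other markers from 18.9 to 25.7 and from 15.5 to 19.8 TPM, and their part in the receptor values was not tested. In RNA from whole cultures, a change in the share of cells that express a gene and a change in the amount per cell cannot be told apart. Read counts of siControl replicate 1 differed more from siControl replicates 2 and 3 (chi-square per gene of 11.5 and 11.4) than those differed from each other (3.54), so values without it are given for Vdr, Rxrb, Ppard, Pparg and Spp1.

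The sequences before the starts of the 3 receptors whose values moved most without overlap between groups, in either direction, are shown as RefSeq gives them for GRCm38.p6, 250 bases each, read 5′ to 3′ on the strand of the gene. Capitals mark GGGCGG, the GC box bound by Sp1, AGGTCA, the core letters that nuclear receptors bind, and TGCGTCA, an AP-1-like element, on either strand.
Vdr, chr15:97908297-97908546, minus strand: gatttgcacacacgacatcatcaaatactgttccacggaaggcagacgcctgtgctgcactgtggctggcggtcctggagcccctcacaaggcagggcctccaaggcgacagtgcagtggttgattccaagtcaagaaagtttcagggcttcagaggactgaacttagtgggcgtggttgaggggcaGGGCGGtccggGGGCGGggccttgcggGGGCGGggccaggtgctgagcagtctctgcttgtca
Nr1d2, chr14:18239107-18239356, minus strand: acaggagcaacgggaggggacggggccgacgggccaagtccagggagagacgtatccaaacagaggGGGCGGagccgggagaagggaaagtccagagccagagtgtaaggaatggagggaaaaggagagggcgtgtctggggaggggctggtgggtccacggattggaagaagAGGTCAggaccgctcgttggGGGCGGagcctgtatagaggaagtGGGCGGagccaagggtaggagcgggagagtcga
Nr4a1, chr15:101266596-101266845, plus strand: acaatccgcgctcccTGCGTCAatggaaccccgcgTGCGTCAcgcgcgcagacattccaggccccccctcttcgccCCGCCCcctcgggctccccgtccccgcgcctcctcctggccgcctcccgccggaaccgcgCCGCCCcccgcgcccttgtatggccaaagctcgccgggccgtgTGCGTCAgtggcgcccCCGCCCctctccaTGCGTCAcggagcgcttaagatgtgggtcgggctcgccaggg
Of the 10 receptors, 9 had their starts searched, with 16 starts in all, and Nr3c1 was not searched. GGGCGG stood before 13 of the 16 starts, where 33% of the 32536 promoters of the same length that were searched held it. At least 1 start of each of the 9 receptors held it, a count by gene that this share does not cover. The bases before starts 1 and 2 of Rara overlap, so the starts are not independent. AGGTCA stood before 4 of the 16 starts, which belong to Nr1d2, Pparg and Rxra, and in 14% of those promoters. TGCGTCA stood before Nr4a1 alone among the 9, with 4 matches in 250 bases, while 1.76% of all those promoters held at least 1. The motifs searched were picked by hand, and whether TGCGTCA was picked with the Nr4a1 promoter in view is not stated. That share therefore does not measure how unusual the matches before Nr4a1 are. CACGTG, the E-box of clock factors, was found before Rara alone and in 6.04% of promoters. Neither AGAACA, core letters of the glucocorticoid receptor site, nor TGACGTCA, the cyclic AMP response element, was found before any of the 9, against 16% and 1.56% of promoters. The 4 TGCGTCA matches overlap no other motif searched. A match describes letters only and is no evidence of binding.

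In control cells the receptors spanned a wide range of levels, with the retinoid X receptors at the top and Pparg at the bottom. Rxrb had 60.8 ± 4.98 TPM and Rxra 40.3 ± 1.53 TPM (SD, n = 3 for every mean here), and the 3 libraries of Rxrb all lay above those of Rxra. Esrra, Rara, Nr3c1, Ppard and Nr4a1 followed at 35.6 ± 2.27, 33.4 ± 2.85, 30.3 ± 2.32, 29.8 ± 3.08 and 27.8 ± 1.91 TPM. The ranges of each neighbouring pair among these 5 receptors overlapped, so their order is not settled beyond the spread of the libraries. Nr1d2 at 15.4 ± 0.578 TPM, Vdr at 6.80 ± 1.3 TPM and Pparg at 1.13 ± 0.555 TPM each lay below the receptor before it with no overlap. Of the 9 neighbouring pairs 5 were apart in control cells. By the mean over all 6 libraries, not the controls alone, 81.5% of the 13829 genes tested lay below Rxrb, 36.4% below Vdr and 6.98% below Pparg. With siNCOA4 the mean of Nr4a1 stood above those of Nr3c1 and Ppard, with overlapping ranges, and Vdr, at 10.8 to 11.1 TPM, reached the range of Nr1d2, at 10.5 to 11.6 TPM.

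**Figure D1:**
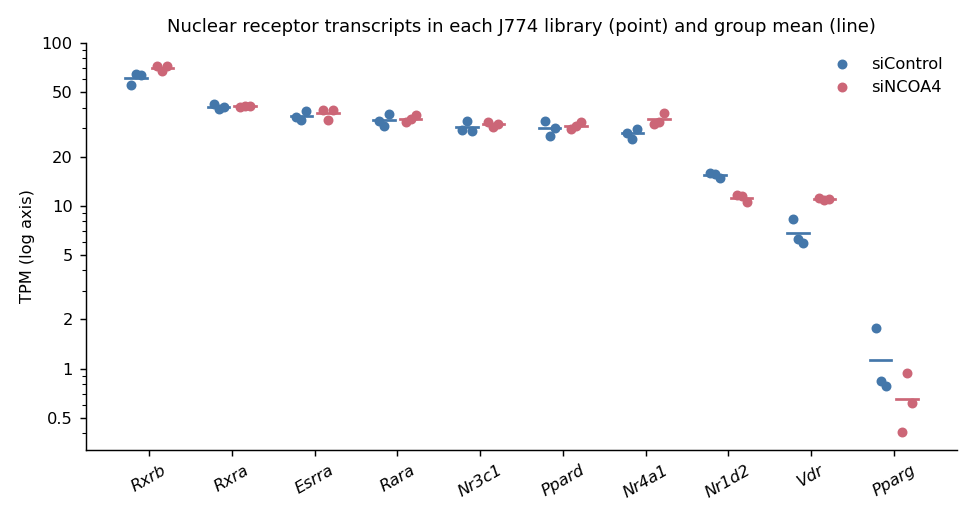
TPM, on a log axis, of the 10 nuclear receptors in the 6 libraries, with a point for each library and a line at the group mean. Vdr lies at 5.87 to 8.29 TPM with siControl and 10.8 to 11.1 TPM with siNCOA4, and Nr1d2 at 14.7 to 15.8 and 10.5 to 11.6 TPM, while 6 receptors overlap between the groups.

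The effect of NCOA4 silencing on the receptors was compared over the 6 libraries with limma on log2(TPM + 0.5), with Benjamini-Hochberg adjustment over the 13829 genes whose mean was at least 0.5 TPM. A call needed both an adjusted p under 0.05 and more than a 1.5-fold change. All 10 receptors were tested and 1, Vdr, was called, where 1.18% of all tested genes were called. At an adjusted p under 0.05 alone, Vdr was higher and Nr1d2 lower, against 3.11% of all tested genes that were higher and 2.31% that were lower by that rule. Rxrb, Nr4a1 and Vdr were higher with no overlap between the groups, as were 16.6% of all tested genes, and Nr1d2 was lower with no overlap, as were 11.8%. The median log2 fold change of the 10 receptors was 0.06, and that of all tested genes was 0.03. Their summed level was 281 ± 5.69 TPM with siControl and 301 ± 8.42 TPM with siNCOA4, and in control cells they held 63.4% of the TPM of the whole superfamily.

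Vdr, the vitamin D receptor (ENSMUSG00000022479, chromosome 15 from 97854425 to 97910630 of GRCm38, minus strand), binds calcitriol, the active hormone of vitamin D. It read 8.29, 6.25 and 5.87 TPM in siControl replicates 1, 2 and 3 and 11.1, 10.8 and 11.0 TPM in siNCOA4 replicates 1, 2 and 3. All siNCOA4 libraries lay above all control libraries, and siControl replicate 1 was the highest of the controls. The SD was 0.153 TPM over the siNCOA4 libraries and 1.3 TPM over the controls. The mean TPM of Vdr rose to 161% of that of the controls, with a log2 fold change of TPM + 0.5 of 0.67 (standard error 0.125, 95% interval 0.37 to 0.96, adjusted p = 0.0312). On that scale the fold was 1.59, with an interval of 1.29 to 1.95, so that the interval holds folds under the 1.5 of the call. Behind the values stood 173 to 269 reads with siControl and 333 to 375 with siNCOA4. The exact two-sided permutation p of TPM was 0.1, the smallest that 3 libraries against 3 allow. Without siControl replicate 1 the log2 fold change was 0.81 with an adjusted p of 0.00586. The call was lost without siControl replicate 2 or 3 or without siNCOA4 replicate 1, 2 or 3, with adjusted p-values of 0.0826, 0.0779, 0.128, 0.123 and 0.119, and also with no filter on TPM (0.0657), with quantile normalization (0.0501) and with eBayes without a trend (0.0628).

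The partners of Vdr differed in how they compared between groups. Rxra, the retinoid X receptor alpha, read 41.9, 38.9 and 40.2 TPM in the control libraries and 40.2, 41.1 and 40.6 TPM in the siNCOA4 libraries. The groups overlapped, and the log2 fold change was 0.01 with a 95% interval of -0.09 to 0.12 (adjusted p = 0.905). Rxrb, the retinoid X receptor beta, read 55.1, 64.3 and 63.1 TPM with siControl and 71.8, 67.4 and 71.5 TPM with siNCOA4. Every siNCOA4 library lay above every control library, with siControl replicate 1 the lowest of all. Its log2 fold change of 0.21 (standard error 0.0669, 95% interval 0.05 to 0.37) had an adjusted p of 0.138 and did not pass. With limma-voom on the rebuilt reads the adjusted p of Rxrb was 0.0298, and without siControl replicate 1 the log2 fold change was 0.14. Rxrg, the third member of the family, named with its values in view, was listed at 0 in all 6 libraries. The ratio of Vdr to Rxra was 0.198, 0.161 and 0.146 with siControl and 0.276, 0.263 and 0.271 with siNCOA4, so even the highest control value was below the lowest siNCOA4 value. Against Rxrb the ratio of Vdr was 0.15, 0.0971 and 0.0931 with siControl and 0.155, 0.161 and 0.154 with siNCOA4. There siControl replicate 1 lay only just below the siNCOA4 libraries. The ratio of Rxra to Rxrb was 0.667 ± 0.0823 with siControl and 0.580 ± 0.0269 with siNCOA4, and its groups overlapped.

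Nr1d2 encodes REV-ERB beta, a heme-binding receptor that lacks the helix needed to recruit coactivators and represses clock and metabolic genes (ENSMUSG00000021775, chromosome 14 from 18204054 to 18239127 of GRCm38, minus strand). It read 15.8, 15.6 and 14.7 TPM in siControl replicates 1, 2 and 3 and 11.6, 11.5 and 10.5 TPM in siNCOA4 replicates 1, 2 and 3. The lowest control library lay above the highest siNCOA4 library, and replicate 3 was the lowest of each group. Mean TPM of Nr1d2 fell to 72.7% of that of the controls, and the log2 fold change was -0.44 (standard error 0.065, 95% interval -0.60 to -0.29, adjusted p = 0.0151). The change did not reach a fold of 1.5, and it rested on 415 to 513 reads with siControl and 338 to 363 with siNCOA4. Nr1d1, which encodes REV-ERB alpha and was chosen after its values were seen, was at 2.43 ± 0.387 TPM with siControl and 2.42 ± 0.300 TPM with siNCOA4, with a log2 fold change of 0 (95% interval -0.38 to 0.38, adjusted p = 0.999). The ratio of Vdr to Nr1d2 was 0.526, 0.399 and 0.399 with siControl and 0.963, 0.943 and 1.05 with siNCOA4. That these do not overlap follows from Vdr being higher and Nr1d2 lower, each without overlap, and is no further evidence. The adjusted p of Nr1d2 was above 0.05 without siNCOA4 replicate 1, 2 or 3, at 0.0650, 0.0714 and 0.0684.

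Nr4a1 encodes NUR77, an orphan receptor whose transcription starts within minutes of many stimuli (ENSMUSG00000023034, chromosome 15 from 101254269 to 101274795 of GRCm38, plus strand). It read 28.0, 25.8 and 29.6 TPM in the control libraries and 31.6, 32.8 and 37.2 TPM in the siNCOA4 libraries. No siNCOA4 library lay below a control library, and siNCOA4 replicate 3 stood highest. The log2 fold change of 0.28 (standard error 0.0791, 95% interval 0.09 to 0.47) had an adjusted p of 0.1 and did not pass, while limma-voom gave 0.0276. Of its relatives, which were chosen after their values were seen, Nr4a2 was at 4.47 ± 0.628 and 4.41 ± 0.560 TPM with a log2 fold change of -0.02 (adjusted p = 0.960), and Nr4a3 was at most at 0.153 TPM in any library.

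The other 6 receptors had overlapping groups and adjusted p-values from 0.441 to 0.905, Rxra included. Rara, a retinoic acid receptor, read 33.1, 30.7 and 36.3 TPM with siControl and 32.8, 34.1 and 35.8 TPM with siNCOA4, a log2 fold change of 0.04 (95% interval -0.13 to 0.21). Nr3c1, the glucocorticoid receptor, read 29.3, 33 and 28.7 TPM with siControl and 32.8, 30.5 and 31.6 TPM with siNCOA4, a log2 fold change of 0.06 (interval -0.09 to 0.22). For both, control replicates marked the highest and the lowest of the 6 values, and the siNCOA4 libraries lay between them. Ppard, the fatty acid sensor PPAR delta, read 32.9, 26.7 and 29.8 TPM with siControl and 29.7, 30.6 and 32.7 TPM with siNCOA4, a log2 fold change of 0.06 (interval -0.14 to 0.25), or 0.13 without siControl replicate 1. Esrra, the estrogen related receptor alpha that drives mitochondrial genes with PGC-1 coactivators, read 35.1, 33.6 and 38.0 TPM with siControl and 38.5, 33.7 and 38.7 TPM with siNCOA4, a log2 fold change of 0.05 (interval -0.12 to 0.23). Of the 4387 exon bases of Esrra, 73 lie opposite Trmt112 and 91 are shared with Mir6990 on the same strand. The intervals of these 4 receptors and of Rxra, Rxrb and Nr4a1 all lay inside a fold of 1.5 either way.

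Pparg, the receptor PPAR gamma of fat storage and alternative macrophage activation, was the rarest of the 10. It read 1.77, 0.838 and 0.779 TPM with siControl and 0.408, 0.932 and 0.617 TPM with siNCOA4. The groups overlapped, and siControl replicate 1 stood above the other 5 libraries. The log2 fold change was -0.47 with a wide 95% interval of -1.23 to 0.28 (adjusted p = 0.441). It was -0.21 without siControl replicate 1, -0.75 with limma-voom and -0.68 with a pseudocount of 0.1, none of which passed. Only 7 to 30 reads stood behind each value, and the interval holds both no change and a fall past 1.5-fold, so neither was told from the other. Ppard exceeded Pparg by a ratio of 29.6 ± 10.0 with siControl and 52.9 ± 20 with siNCOA4, and the groups overlapped.

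**Figure D2:**
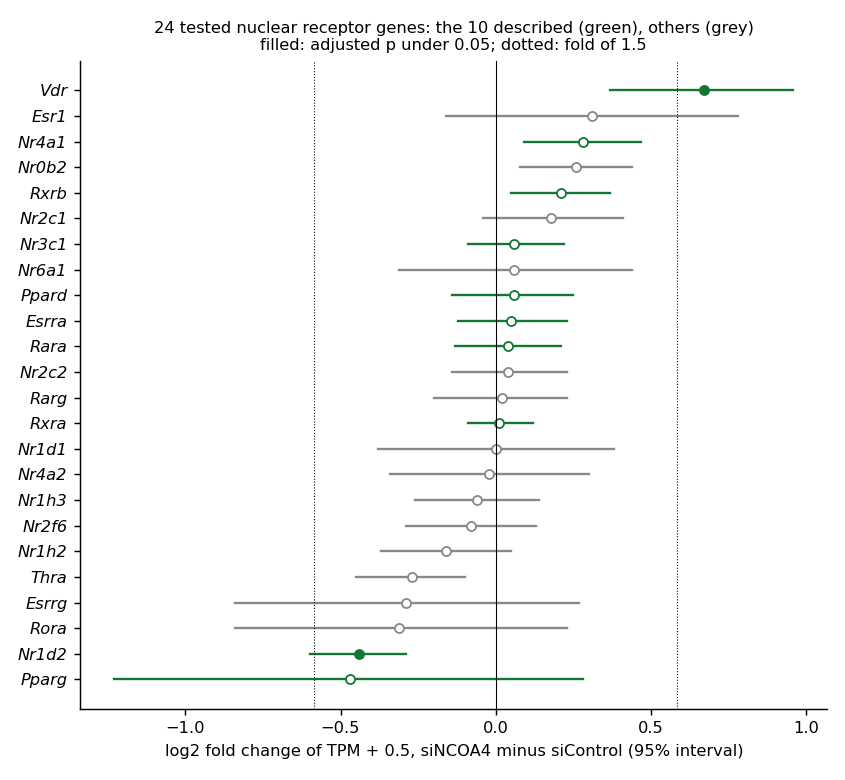
Log2 fold change of TPM + 0.5, siNCOA4 minus siControl, with its 95% interval for the 24 tested nuclear receptor genes, the 10 described here in green and the other 14 in grey. Only Vdr at 0.67 and Nr1d2 at -0.44 are filled for an adjusted p under 0.05, and the interval of Pparg, -1.23 to 0.28, is the widest.

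Of the 49 genes of the superfamily 20 were at 0 in all 6 libraries, 5 were above 0 with a mean under 0.5 TPM, and 24 were tested, of which 17 had a mean of at least 5 TPM. The progesterone receptor Pgr and the thyroid hormone receptor Thrb, and also Rarb and Ppara, were among those listed at 0 and are named for that. Outside the 10, 14 were tested and none had an adjusted p under 0.05 with limma or with limma-voom. At an unadjusted p under 0.05 with limma, 1 was higher and 1 lower, against 2982 of all 13829 tested genes in either direction. Of the 14, 2 were higher and 3 lower without overlap between groups, where 16.6% and 11.8% of all tested genes were. The log2 fold changes of the 14 ran from -0.31 to 0.31. Nr1h2 and Nr1h3 encode the oxysterol receptors LXR beta and LXR alpha, which drive cholesterol export. Nr1h2 had the second highest mean in control cells, 47.2 ± 5.56 TPM, with a range of 41.2 to 52.2 TPM that overlapped that of Rxra, and stood at 42.1 ± 1.92 TPM with siNCOA4 (log2 fold change -0.16, adjusted p = 0.355). Nr1h3 was at 8.71 ± 0.271 and 8.35 ± 0.780 TPM (adjusted p = 0.734), and it shares 34 of 2515 exon bases with Gm13783 on the same strand. Both overlapped between the groups.

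Nr0b2 encodes SHP, a receptor without a DNA-binding domain that represses others. It read 26.8, 24.6 and 27.8 TPM with siControl and 28.9, 33.6 and 32.6 TPM with siNCOA4. Its groups did not overlap, with a log2 fold change of 0.26 (95% interval 0.08 to 0.44) and an adjusted p of 0.106. Thra, the thyroid hormone receptor alpha, read 9.13, 8.22 and 8.52 TPM with siControl and 7.35, 7 and 6.79 TPM with siNCOA4. All siNCOA4 libraries lay below all controls, with a log2 fold change of -0.27 (interval -0.45 to -0.10) and an adjusted p of 0.0920. Thra shares 263 of 4614 exon bases with Nr1d1 on the opposite strand. Rarg, Nr2c1, Nr2c2 and Nr2f6, a retinoic acid receptor and 3 orphan receptors, overlapped between the groups, with log2 fold changes of 0.02, 0.18, 0.04 and -0.08 and adjusted p-values of 0.929, 0.323, 0.784 and 0.645. Nr2c2 shares 4590 of 14935 exon bases with Mrps25 and Nr2f6 shares 1622 of 2983 with Ocel1, both on the opposite strand. Mrps25 averaged 23.4 TPM and Ocel1 4.95 TPM over the 6 libraries.

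**Figure D3:**
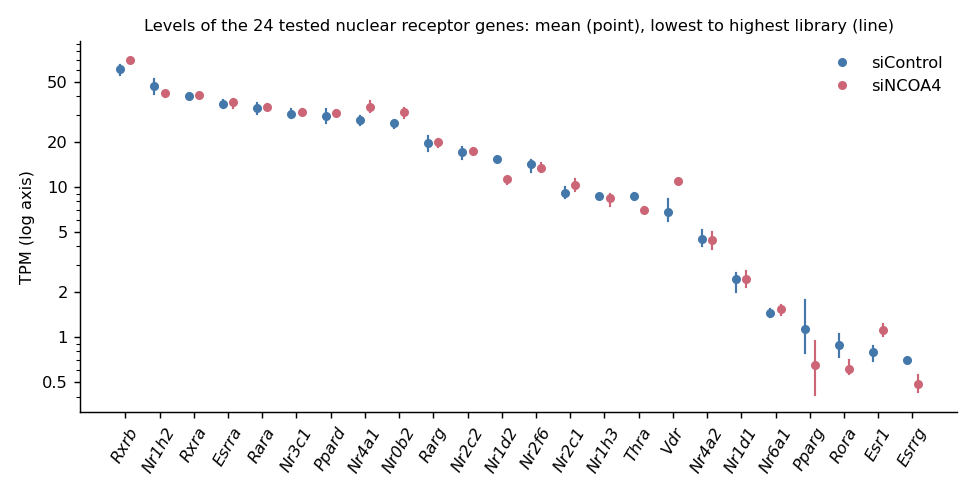
Mean TPM, on a log axis, of the 24 tested nuclear receptor genes in siControl and siNCOA4 libraries, with lines from the lowest to the highest of the 3 libraries, ordered by the control mean. Rxrb is highest at 60.8 TPM and Nr1h2 next at 47.2 TPM, and the 7 genes at the right have means under 5 TPM.

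Genes that work with the receptors were counted by role, in lists from textbook knowledge in which some genes stand more than once. The lists, too, were made with earlier results of these data known. None of the lists was tested as a set, and their counts at an adjusted p under 0.05 stand beside the 3.11% of all tested genes that were higher, the 2.31% that were lower and the overall median of 0.03. Counts at an unadjusted p under 0.05 stand beside 2982 of all 13829 tested genes in either direction. Those with limma-voom at an adjusted p under 0.05 stand beside 1499 of the 13829. Exon overlaps of named genes are given, since whether the counting used strand is not given in the sources used here. Of 25 genes that make or carry ligands, 9 were tested, 1 rose and 1 fell. Cyp27a1, a sterol 27-hydroxylase of bile acid and oxysterol synthesis that also hydroxylates vitamin D, read 47.2, 50.9 and 48.0 TPM with siControl and 64.9, 71.1 and 66.7 TPM with siNCOA4. Its groups were clearly apart, and it rose by 0.47 on the log2 scale (standard error 0.0522, adjusted p = 0.00677). Dhrs9, a dehydrogenase that acts on retinol, fell from 82.5 ± 6.31 to 66.1 ± 1.96 TPM (log2 fold change -0.32, adjusted p = 0.0349), but did not pass an adjusted p of 0.05 without siControl replicate 1 or 2 or any 1 siNCOA4 library, with values up to 0.146. Cyp27b1, which makes calcitriol, was chosen after its values were seen and lay between 0.338 and 1.2 TPM over the 6 libraries.

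Coregulators bind the receptors and open or close chromatin. Of 27 coactivators besides Ncoa4, 26 were tested and 2 rose, with a list median of 0 on the log2 scale. Kat2b, the acetyltransferase PCAF, read 25.4, 28.3 and 27.8 TPM with siControl and 35.4, 34.7 and 35.8 TPM with siNCOA4, a log2 fold change of 0.37 (adjusted p = 0.0150). Pnrc1, a proline-rich coactivator, rose from 44.8 ± 2.56 to 55.5 ± 1.14 TPM (log2 fold change 0.31, adjusted p = 0.0235). Without any 1 of the siNCOA4 libraries neither passed, with adjusted p-values up to 0.0819 for Kat2b and 0.111 for Pnrc1. With limma-voom 5 coactivators were higher and 1 was lower at an adjusted p under 0.05. The p160 coactivators, chosen after their values were seen, did not pass. Ncoa1 was at 15.3 ± 0.220 and 18 ± 1.46 TPM (adjusted p = 0.124), Ncoa2 at 15.3 ± 0.336 and 17.2 ± 0.521 TPM (adjusted p = 0.146) and Ncoa3 at 127 ± 0.679 and 117 ± 2.88 TPM (adjusted p = 0.130). Of 21 corepressors 20 were tested and none passed with limma or limma-voom, with 2 lower at an unadjusted p under 0.05 and log2 fold changes between -0.15 and 0.16. Of 14 chaperones that hold the glucocorticoid receptor, all were tested and none passed with limma, with a median of -0.07 and a range of -0.19 to 0.10. At an unadjusted p under 0.05, 1 chaperone was higher and 5 were lower, and with limma-voom 2 were lower at an adjusted p under 0.05.

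Textbook targets of each receptor were then counted. Of 12 targets of Vdr 6 were tested, and 2 fell and none rose at an adjusted p under 0.05. Spp1, which encodes osteopontin, read 4750, 6010 and 5580 TPM with siControl and 3740, 3640 and 3630 TPM with siNCOA4. Every siNCOA4 library was lower than every control library, and the log2 fold change was -0.56 (adjusted p = 0.0187, standard error 0.0881), or -0.66 without siControl replicate 1. Cd14, the lipopolysaccharide coreceptor, fell from 1170 ± 68.8 to 975 ± 19.1 TPM (log2 fold change -0.27, adjusted p = 0.0361). Cyp24a1, the calcitriol-degrading enzyme and most used readout of the receptor, was chosen after its values were seen and was above 0 in siControl replicate 1 alone, at 0.0978 TPM from 2 reads. The median log2 fold change of the 6 was 0, and none was higher at an unadjusted p under 0.05 or with limma-voom. Neither gene passed an adjusted p of 0.05 without any 1 siNCOA4 library or without siControl replicate 3, nor did Cd14 without siControl replicate 2, with adjusted p-values up to 0.0982 for Spp1 and 0.158 for Cd14. Some exon bases of Spp1, 309 of 1648, are shared with Gm42793 on the same strand.

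Of 26 PPAR targets 19 were tested, 2 fell and none rose, with a list median of -0.01. Lpl, lipoprotein lipase, read 27.1, 26.5 and 24.5 TPM with siControl and 19.5, 18.4 and 18.6 TPM with siNCOA4, which do not overlap, a log2 fold change of -0.45 (adjusted p = 0.00965). Plin2, a lipid droplet coat protein, fell from 660 ± 37.0 to 547 ± 11.5 TPM (log2 fold change -0.27, adjusted p = 0.0305). Lpl did not pass an adjusted p of 0.05 without siNCOA4 replicate 2 or 3 (up to 0.0623), nor did Plin2 without any 1 siNCOA4 library or siControl replicate 2 or 3 (up to 0.141). At an unadjusted p under 0.05, 3 targets were higher, and 2 with limma-voom after adjustment. Cd36, the scavenger receptor often used as a PPAR gamma readout, was chosen after its values were seen and was at 440 ± 45.1 and 435 ± 18.1 TPM (log2 fold change -0.01, 95% interval -0.20 to 0.17).

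Of 14 targets of the retinoic acid receptors 4 were tested and 1, Tgm2, rose. Tgm2, tissue transglutaminase, read 5.22, 5.41 and 4.75 TPM with siControl and 14.7, 14.1 and 13.2 TPM with siNCOA4. The lowest siNCOA4 library was well above the highest control, and Tgm2 was called, with a log2 fold change of 1.37 (adjusted p = 0.00127, standard error 0.080). The other 3 had log2 fold changes between -0.07 and 0.03. Tgm2 shares exon bases on the opposite strand with Rprd1b, 370 of 4608, and with Gm20412, 633 of 4608.

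Of 22 targets of the glucocorticoid receptor 18 were tested, 1 rose and none fell, with a list median of -0.05. Mertk, a receptor for the uptake of dying cells, read 28.6, 29.6 and 25.7 TPM with siControl and 39.9, 38.4 and 39.2 TPM with siNCOA4, which do not overlap, a log2 fold change of 0.48 (adjusted p = 0.00965, up to 0.0625 without any 1 siNCOA4 library, where it did not pass). At an unadjusted p under 0.05, 3 targets were higher and 3 lower, and limma-voom put 3 higher and 0 lower at an adjusted p under 0.05. Tsc22d3 and Fkbp5, common readouts of glucocorticoid action that were chosen after their values were seen, had log2 fold changes of 0.14 and -0.12 and adjusted p-values of 0.623 and 0.259. Of 19 targets of the estrogen related receptors 18 were tested and none passed with limma or limma-voom, with 1 lower at an unadjusted p under 0.05, and the list median was -0.01 with a range of -0.10 to 0.23.

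Of 20 clock genes, which are partners and targets of the REV-ERB receptors, 18 were tested, 1 fell and none rose, with a list median of -0.08. Bhlhe40, which encodes the clock repressor DEC1, fell from 69.7 ± 3.09 to 59.6 ± 1.77 TPM (log2 fold change -0.22, adjusted p = 0.0470), but did not pass when any 1 of the 6 libraries was left out (adjusted p from 0.0567 to 0.17). It shares 118 of 4705 exon bases with 0610040F04Rik on the opposite strand. Limma-voom put 1 clock gene higher and 3 lower at an adjusted p under 0.05, and at an unadjusted p 1 was higher and 5 were lower. Without overlap between groups 1 was higher and 6 were lower, where 16.6% and 11.8% of all tested genes were. Among these, picked for their values, Clock and Nfil3 had log2 fold changes of -0.26 and -0.29 (limma adjusted p = 0.120 and 0.0805). Cry1 was the higher one at 0.38 (limma adjusted p = 0.0962). Arntl, which encodes BMAL1 and is a direct target of REV-ERB repression, was chosen after its values were seen. It was at 9.39 ± 0.712 TPM with siControl and 8.53 ± 0.341 TPM with siNCOA4 (log2 fold change -0.13, adjusted p = 0.403), and its groups overlapped.

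Of 23 immediate early genes, the class Nr4a1 belongs to, 20 were tested, 1 rose and 3 fell, with a list median of -0.15. At an unadjusted p under 0.05, 3 were higher and 7 lower, and limma-voom put 1 higher and 5 lower at an adjusted p under 0.05. Without overlap between groups 2 were higher and 8 lower, where 16.6% and 11.8% of all tested genes were. Btg2, an antiproliferative gene, read 5.27, 4.63 and 6.01 TPM with siControl and 12.4, 12.0 and 13.4 TPM with siNCOA4. It was called, with groups far apart and a log2 fold change of 1.18 (adjusted p = 0.00284, standard error 0.104). Jun, a subunit of AP-1, read 126, 116 and 126 TPM with siControl and 84.4, 87.6 and 90.4 TPM with siNCOA4, and it fell by 0.49 on the log2 scale (adjusted p = 0.00466). It shares 232 of 3189 exon bases with Junos on the opposite strand. Atf3 and Klf6, a stress repressor and a Krüppel-like factor, fell by 0.31 and 0.19 on that scale, with adjusted p-values of 0.0396 and 0.0498. Neither passed an adjusted p of 0.05 without any 1 siNCOA4 library or siControl replicate 2 or 3, nor did Klf6 without siControl replicate 1, with adjusted p-values up to 0.146 and 0.182. Fos, the partner of Jun, was chosen after its values were seen and was at 45.6 ± 0.441 and 51.7 ± 2.42 TPM (log2 fold change 0.18, adjusted p = 0.0853).

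**Figure D4:**
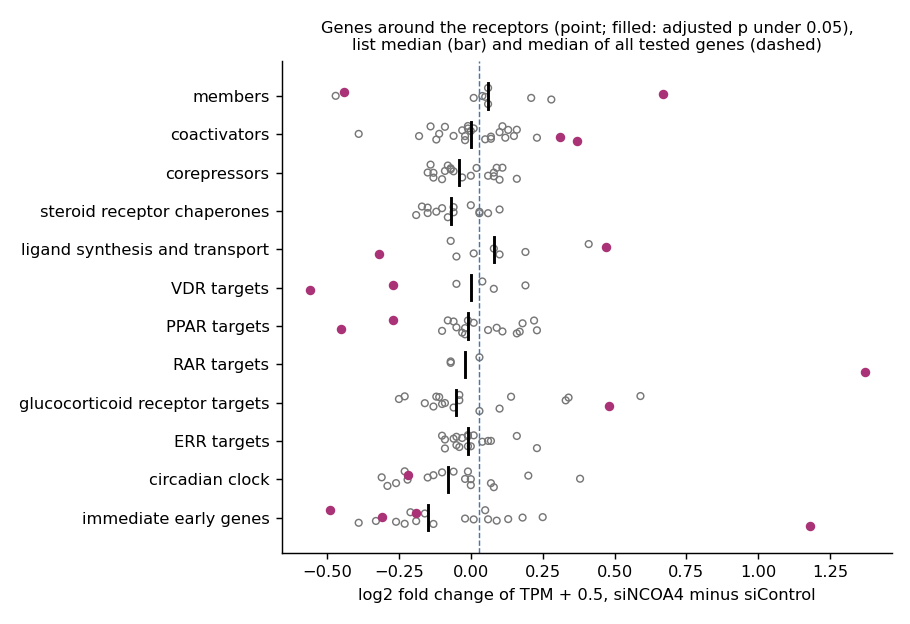
Log2 fold change of TPM + 0.5, siNCOA4 minus siControl, of each tested gene in the lists around the receptors, with filled points for an adjusted p under 0.05, a bar at the list median and a dashed line at 0.03, the median of all tested genes. The list medians lie between -0.15 and 0.08, and Tgm2 at 1.37 and Btg2 at 1.18 lie farthest to the right.

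The genes whose pattern was most like that of Vdr and Nr1d2 were sought among 10037 other genes with a mean of at least 5 TPM, by Pearson's r over the 6 libraries on the log2 scale. All points share the same libraries and the difference between groups, so r is a description. Nearest to Vdr were Cyth4 (r = 0.9954), Gng2 (r = 0.9951) and Wdr41 (r = 0.995), whose log2 fold changes of 0.15, 0.18 and 0.18 did not pass, with adjusted p-values of 0.0820, 0.0608 and 0.0931. Nearest to Nr1d2 were Yaf2 (r = 0.9975), Srgap3 (r = 0.9963) and Reep3 (r = 0.996). Of these, Srgap3 fell from 8.52 to 5.96 TPM (log2 fold change -0.48, adjusted p = 0.0233) and Reep3 from 31.6 to 22.7 TPM (-0.46, adjusted p = 0.0127), sizes close to that of Nr1d2. Yaf2 was at 60.6 and 55.3 TPM (-0.13, adjusted p = 0.106).

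How far the values of the 4 receptors without overlap depended on the choices made is shown by their log2 fold changes under 15 alternatives. Vdr stayed between 0.58 and 0.81 and passed an adjusted p of 0.05 in 6 of 15, and Nr1d2 stayed between -0.50 and -0.40 and passed in 11 of 15. Nr4a1, from 0.21 to 0.33, and Rxrb, from 0.14 to 0.25, passed in 1 of 15 each, limma-voom on the rebuilt reads.

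**Figure D5:**
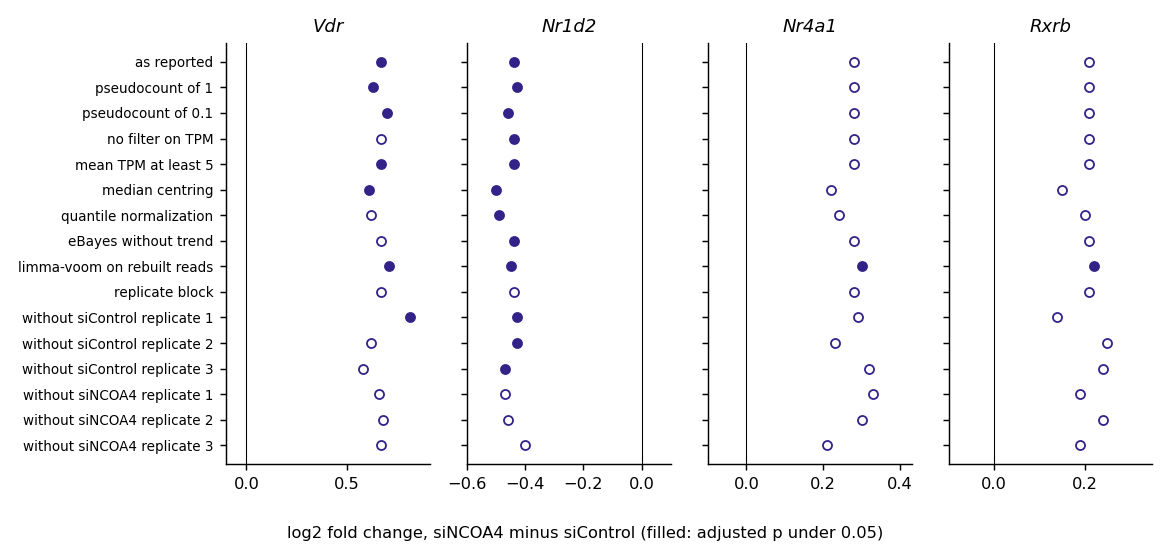
Log2 fold change, siNCOA4 minus siControl, of Vdr, Nr1d2, Nr4a1 and Rxrb as reported and under 15 alternatives, with filled points for an adjusted p under 0.05. All points of each receptor lie on the same side of 0, and the filled points are 7 of 16 for Vdr and 12 of 16 for Nr1d2, the reported value included.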

How the data were processed

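J774 clone E cells were profiled as 3 siControl and 3 siNCOA4 libraries. The authors made stranded poly(A) libraries and deposited TPM per Ensembl gene, with no further scaling between libraries. The authors' processing notes name mm10, Trimmomatic (0.33), FastQC, HISAT2 (2.1.0), featureCounts and edgeR, without roles. Symbols and positions came from GENCODE M21 (GRCm38), which held 55227 of 55487 identifiers, and promoters from RefSeq, read with Python 3.11.15.

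Genes with a mean of at least 0.5 TPM entered limma 3.58.1 (lmFit and eBayes with a trend, in R 4.3.3) on log2(TPM + 0.5), a scale that understates the change of low genes. Of 13829 genes 2982 had an unadjusted p under 0.05, 750 an adjusted p under 0.05, and 163 were called. On simulated data the test found 63.3% of 1.5-fold and 75.6% of 2-fold changes at an adjusted p under 0.05. Wrong calls among 13829 genes averaged 10.8 and 9.6 there, and 2 where nothing was changed. The simulation gave all genes and both groups the same added spread between replicates, so it does not carry the larger differences of siControl replicate 1. TPM times exon length gave reads within 0.01 of a whole number in all 6 libraries for 98.4% of 21096 genes above 0. For the other 337, Rxra and Esrra among them, the smallest length that did so was used.

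The members and lists were chosen with earlier results of these data known. Named are Ncoa4, the 10 receptors, superfamily genes with a mean of at least 5 TPM, up to 4 genes per list with the smallest adjusted p under 0.05, and the 3 genes most like each receptor that passed, and other genes, markers included, were picked with their values in view. The alternatives were no filter on TPM, a mean of at least 5 TPM, pseudocounts of 0.1 and 1, median centring, quantile normalization, eBayes without a trend, limma-voom on rebuilt reads, a replicate block, and the removal of any 1 library. Protein sequences were not analysed here.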

Additional observations from a re-analysis of the deposited data

How the results depend on the processing

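The count of receptors called was 1 as reported and 0 with no filter on TPM, quantile normalization, eBayes without a trend and the replicate block, and leaving out 1 library gave 0 to 1. The count at an adjusted p under 0.05 was 2 as reported, 1 with no filter, quantile normalization or eBayes without a trend, 4 with limma-voom and 0 with the replicate block, and leaving out 1 library gave 0 to 2. Under the block the adjusted p was 0.0772 for Vdr and 0.0583 for Nr1d2. Deviations of same-numbered libraries from their group means had correlations of 0.0328, -0.0597 and 0.0627, and those of the other pairs ran from -0.0769 to 0.0432. The labels do not say whether a number marks a shared culture or day, and with 3 libraries per group these correlations cannot decide it. The cause of the differences between the settings was not tested. Median centring and leaving out control libraries left 5 to 7 neighbouring receptors apart in the order of levels, against 5.

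No gene with an adjusted p under 0.05 as reported changed sign, while Rxra, Rara, Ppard, Rarg, Nr1h3 and Nr2c2, with log2 fold changes near 0, did under at least 1 alternative. Ncoa4, Cyp27a1, Tgm2, Btg2 and Jun kept an adjusted p under 0.05 in all 15 alternatives, and the other list genes that were followed did so in 5 to 12. Over all genes, 163 calls became 87 with the block, 86, 77 and 98 without siNCOA4 replicate 1, 2 and 3, and 218 with limma-voom, and genes at an adjusted p under 0.05 went from 750 to between 127 and 1499. The share of calls that were higher was 73% as reported, 60.7% with median centring and 61.9% with quantile normalization. Pparg rested on 7 to 30 reads per library.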
